A study of Homo sapiens with 11 samples.

Results

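Glucocorticoid receptor (GR) binding sites of a control cell line without a GR transgene were compared with those of sister lines that carry one. The comparison used 5 of the 11 samples of the series, chosen by antibody and line from the sample titles: 1 GR library of the control line, 2 of the wild-type GR line and 2 of the 3KR line. All are chromatin immunoprecipitation sequencing (ChIP-seq) libraries of HEK293 cells, a human embryonic kidney line, made with a single GR antibody. The control line (FRT in the titles) stably expresses no receptor transgene, the wild-type line expresses wild-type GR, and the 3KR line expresses a GR whose SUMOylation is defective. All lines came from the Flp-In recombination system. Their cells spent 72 h without steroid in the medium and then received dexamethasone (100 nM, 1 h), a synthetic agonist of GR. The labels name no promoter for the transgenes and give no receptor level for any line, so the lines are ordered here only by the absence or presence of a transgene.

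GR is a nuclear receptor that stays mainly in the cytoplasm until a glucocorticoid binds it, then enters the nucleus and binds DNA directly or through other factors. HEK293 cells are known to hold little receptor of their own, and GR is often added to them as a transgene. SUMOylation is the reversible attachment of a small ubiquitin-like protein to lysines, and in GR it is known to restrain transcription at some target genes. Peaks of the control line are called control-line sites here, and those of the other lines transgene-line sites. The labels do not say which protein the antibody bound in the control line.

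The control line had 1016 sites over 1.59 Mb, the wild-type line 11259 over 12.9 Mb and the 3KR line 18856 over 21.4 Mb. The wild-type list was thus 11.1 times and the 3KR list 18.6 times as long as the control-line list. In both transgene lines the 2 libraries list the same positions, each library with its own tags and peak length. How the authors merged the duplicates is not stated, and a listed site is read here as the stretch common to both libraries' peaks. In contrast, the control-line list rests on a single library. A control-line site therefore did not have to be seen in a repeat, and no difference between the control line and another line has a replicate test. Tags are the sequence reads counted inside a peak. Over all listed sites they summed to 208776 in the control line and to between 1868745 and 4696781 in the transgene libraries. At some neighbouring wild-type sites, a library repeated the same tag count while its duplicate gave different counts. A long peak can thus stand at several listed sites, and the transgene sums can count the same reads more than once. Tags, ranks and ratios at such sites rest on a shared peak. How many sites are affected was not counted. Total library depth is not stated, so tags are compared mainly by rank within a library.

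Median tags over the whole control-line list lay among those of the longer lists, but the deposited false discovery rates (FDR) of its peaks were higher. Median tags per peak were 175 in the control line, 131 and 241 in wild-type libraries 1 and 2, and 195 and 172.5 in 3KR libraries 1 and 2. The control-line value lay inside the range of the transgene libraries. These medians cover different sites in each list, at a library depth that is not known. At the 801 control-line sites in both transgene lists, median tags were 177 in the control line, below the 237 to 450 of the transgene libraries. Median fold enrichment, the authors' ratio to the peak caller's background, was 12.1 in the control line, below the 15.7, 13.3, 19.9 and 13.1 of the transgene libraries in the same order. The FDR was above 1% at 97.7% of control-line sites, at 32.2% and 0% of sites in wild-type libraries 1 and 2 and at 1.05% and 0% in 3KR libraries 1 and 2. Control-line peaks were also longer, with a median of 1292.5 bp against 1031 to 1194 bp in the 4 transgene libraries.

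Most control-line sites were found again in the full lists of both transgene lines. Sites were matched when they shared at least 1 bp. Of the 1016 control-line sites, 833 (82.0%, exact 95% interval 79.5 to 84.3) overlapped a wild-type site and 891 (87.7%, 85.5 to 89.7) a 3KR site. In both lists lay 801 sites (78.8%), in the 3KR list alone 90, in the wild-type list alone 32 and in neither 93 (9.15%). These intervals cover counting error over sites only. The shares depend on the length of the transgene lists: with each shortened to its 1016 sites of most tags, the wild-type list held 24.7% of control-line sites and the 3KR list 26.0%.

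The share of control-line sites found again followed their fold enrichment and had no steady order by tags. Among the 203 sites of the highest fold quintile, with fold from 18.3 to 58.6, 201 (99.0%) were wild-type sites and 203 (100%) were 3KR sites. In the lowest fold quintile, with fold from 8.01 to 9.43, the shares fell to 57.4% (50.3 to 64.2) and 65.7% (58.7 to 72.2). Across quintiles of control-line tags the shares had no such order. They were 83.7% and 91.6% in the highest tag quintile (median 359 tags) and 81.9% and 90.2% in the lowest (median 98 tags), with the lowest values, 76.8% and 81.3%, in quintile 4. Tags over the control-line list followed peak length (Spearman rho 0.769 across sites, which are not independent) more than fold (rho 0.391), and fold was nearly unrelated to length (rho -0.068). Within the highest tag quintile, 152 sites with a fold above the list median were wild-type sites in 92.8% of cases, and 51 sites with a fold at or below it in 56.9%.

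**Figure D1:**
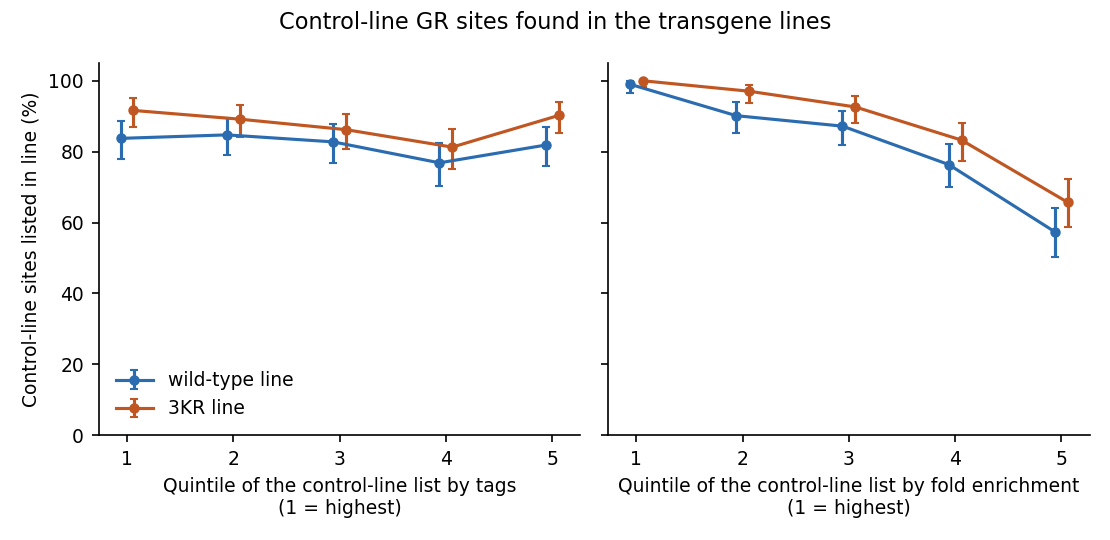
Share of control-line GR sites (in %, y axis) listed in the wild-type (blue) and 3KR (orange) lines, by quintile of control-line tags (left) and of fold enrichment (right), with exact 95% intervals. The shares fall to 57.4% and 65.7% in the lowest fold quintile and stay between 76.8% and 91.6% across the tag quintiles.

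The strongest control-line sites by tags were wide and lay mostly on chromosome 6. Of the 10 sites with the most tags, 6 were on chromosome 6, 8 had a peak longer than 3000 bp, and 9 were in both transgene lists. Positions are hg19, counted from 1, and sites were not assigned to genes here. The site with the most tags, on chromosome 6 from 125061671 to 125075601, held 1423 tags in a peak of 13931 bp in the control line. The matched site had 402 and 634 tags in wild-type libraries 1 and 2 and 1032 and 974 in 3KR libraries 1 and 2. Its transgene-line peaks were narrower, at 1494 and 2263 bp in the wild-type line and 5609 and 4626 bp in the 3KR line. Per kb of peak the control line had 102 tags there, fewer than the 269 and 280 of the wild-type and the 184 and 211 of the 3KR libraries. The order of the lines at this site thus turned with the measure, since the control line was highest in tags and lowest in tags per kb.

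Another pair of strong sites on chromosome 6 had more tags in both transgene lines. The site from 35567724 to 35571634 held 850 tags in the control line, 898 and 1205 in the wild-type and 1555 and 1434 in the 3KR libraries, and ranked 3, 40 and 15 by tags in the 3 lists. The site from 35691403 to 35698219 held 822 control-line tags. It overlapped 3 separate wild-type and 5 separate 3KR sites, the longest overlap being with sites of 874 and 2331 wild-type and 1756 and 1996 3KR tags. That wild-type site ranked 5 and that 3KR site 3 in its list. Within 100 kb on either side, and at the site itself, the control line had 3 sites, the wild-type line 9 and the 3KR line 17. The single control-line peak therefore spanned a stretch where the transgene lists held several sites, and all 4 transgene libraries exceeded the control line in tags at both positions.

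On chromosome 11, the sites with the highest and the third highest fold of the control line showed no such difference in tags. The site from 114049395 to 114050827 held 813 tags at a fold of 58.6 in the control line. It had 650 and 786 tags in the wild-type and 802 and 699 in the 3KR libraries, at folds of 70.0, 37.4, 62.9 and 47.95. The control-line tags were above those of all 4 transgene libraries, although the site ranked 5 in the control-line list and only 174 and 311 in the wild-type and 3KR lists. The site from 114033196 to 114035428 held 704 control-line tags, with 324 and 935 in the wild-type and 910 and 503 in the 3KR libraries. The duplicates of each line thus lay on both sides of the control line in tags. The control-line peak of 2233 bp overlapped 2 sites in each transgene list, and the tags are those of the longest overlap. Peak lengths there were 1066 and 2266 bp in the wild-type and 2328 and 1201 bp in the 3KR libraries, so low tags went with short peaks. Per kb of peak the control line had 315 tags, the wild-type libraries 304 and 413 and the 3KR libraries 391 and 419. Here too the transgene lists added neighbours, with 5 control-line, 14 wild-type and 16 3KR sites at or within 100 kb of the first of these sites. The site of second highest fold, on chromosome 11 from 120911351 to 120912580, had 410 control-line tags, 422 and 484 wild-type tags and 1079 and 880 3KR tags. The site of second highest fold was singled out after its values were seen.

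**Figure D2:**
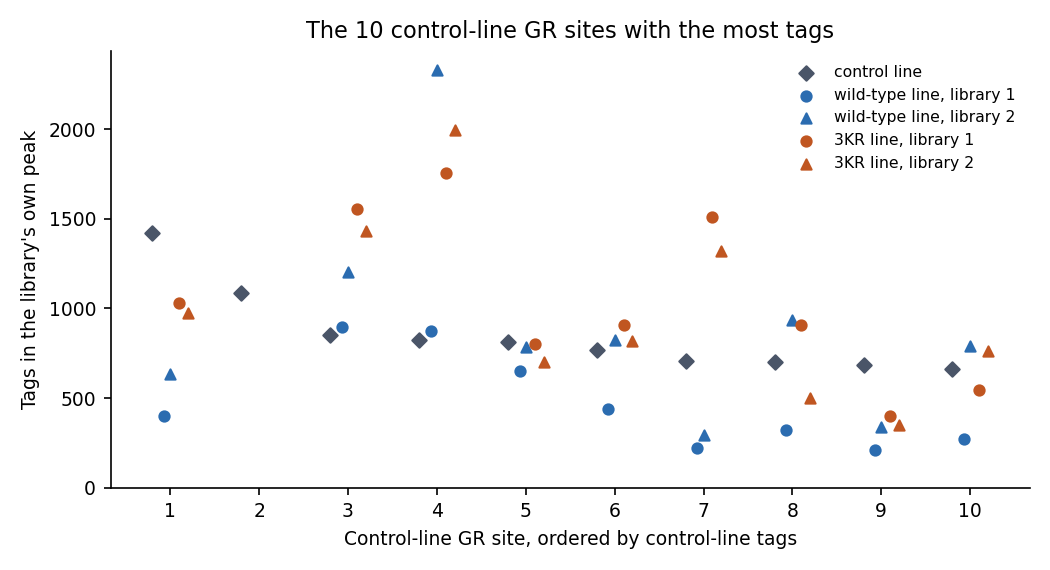
Tags in each library's own peak (y axis) at the 10 control-line GR sites with the most tags (x axis, ordered by control-line tags; diamonds, control line; blue, wild-type line; orange, 3KR line; circles and triangles, libraries 1 and 2). Site 2 has no transgene-line point because neither list holds it, and at site 1 the control line's 1423 tags exceed all other libraries.

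The 93 control-line sites in neither transgene list had a median of 155 tags and a fold of 9.18, against 177 tags and 13.1 at the 801 sites found in both. Their folds ran from 8.02 to 17.3, so none reached the highest fold quintile. In 29 of the 93 a transgene-line site lay within 10 kb, and in 6 within 1 kb. By tags, the leading one was the second strongest control-line site, on chromosome 6 from 124372795 to 124382272, with 1089 tags in a peak of 9478 bp, a fold of 12.2 and an FDR of 3.94%. The nearest 3KR site was 84916 bp and the nearest wild-type site 681319 bp away. Next came sites on chromosome 6 from 4106169 to 4113150 (532 tags over 6982 bp) and from 54740430 to 54745340 (486 tags over 4911 bp). Of the 10 with the most tags, 8 were longer than 3000 bp, 4 lay on chromosome 5 and 3 on chromosome 6. An exception in shape was the site on chromosome 2 from 169517090 to 169518847, which held 411 tags in 1758 bp at a fold of 16.6. A site absent from a list may still hold tags below the listing limits there, and such tags were not analysed here.

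Seen from the transgene lines, sites with many tags had a control-line counterpart more often than weak ones, yet most of the strongest sites had none. Over the whole list, 843 of 11259 wild-type sites (7.49%) and 904 of 18856 3KR sites (4.79%) overlapped one of the control line. In the decile with the most tags, 273 of 1125 wild-type sites (24.3%, 21.8 to 26.9) and 382 of 1885 3KR sites (20.3%, 18.5 to 22.2) did. In decile 5 the shares were 6.75% and 2.39%, and in decile 10 they were 0.977% and 0.106%. Among the 100 sites with the most tags, 33 wild-type and 38 3KR sites overlapped one, and among the top 1000, 250 and 260. The top 1000 of both lines thus held nearly the same number of control-line sites, and 852 wild-type and 1503 3KR sites of the highest decile had none.

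**Figure D3:**
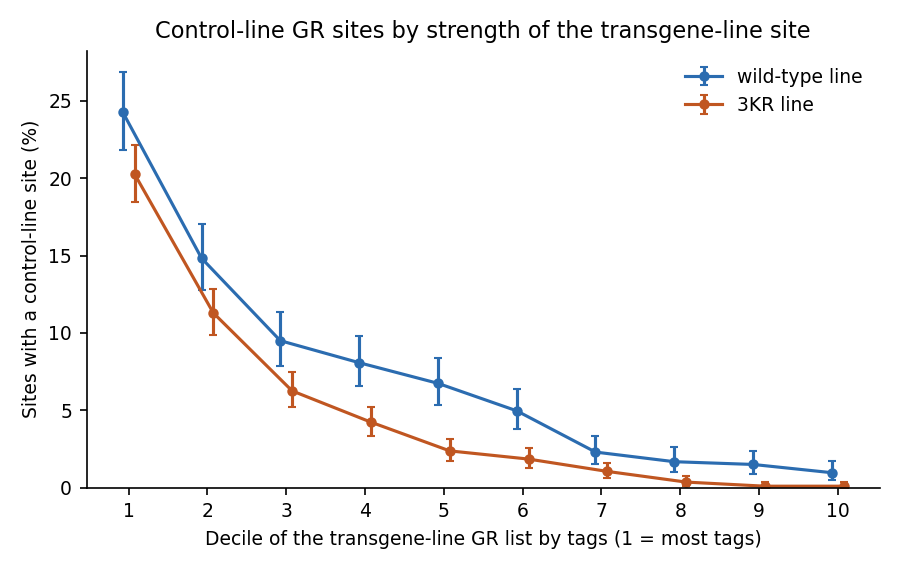
Share of transgene-line GR sites that overlap a control-line site (in %, y axis), by decile of the list by tags (x axis, mean rank of both libraries, 1 = most tags), for the wild-type line (blue) and the 3KR line (orange) with exact 95% intervals. The share falls from 24.3% and 20.3% in decile 1 to 0.977% and 0.106% in decile 10.

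The matched sites ranked alike in both lists when counted from the top. The median rank by tags was 2074 among wild-type and 2366.5 among 3KR sites, which is 18.4% and 12.6% of the way down lists of unequal length. Sites with no control-line counterpart had medians of 52.7% and 52.1%. The spread was wide, with quartiles of 7.27% and 39.1% among matched wild-type and of 4.71% and 26.8% among matched 3KR sites, and 129 wild-type and 66 3KR matched sites ranked below their list's median. By single library the median position was 18.9% and 21.5% in wild-type libraries 1 and 2 and 12.1% and 14.5% in 3KR libraries 1 and 2. In the wild-type list, matched sites had a median of 235 and 399 tags in the 2 libraries and a peak length of 1319 and 1649 bp, against 125 and 231 tags and 1018 and 1163 bp elsewhere. In the other list, that of the 3KR line, they had 439 and 362 tags and 1604.5 and 1531 bp, against 188 and 167 tags and 1056.5 and 1014 bp.

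Among transgene-line sites without a control-line site, the one with the most wild-type tags lay on chromosome 1 from 224019217 to 224029734. It held 1301 and 2920 wild-type tags over 10529 and 16345 bp, ranked 1 in that list and lay 1894 kb from the nearest control-line site. The site on chromosome 3 from 156318521 to 156323170 ranked 2 in the wild-type list, with 2059 and 2348 tags. Its 3KR counterpart ranked 2 as well, with 2559 and 1880 tags, and the nearest control-line site was 211 kb away from both. On chromosome 6, the top 3KR site from 125369009 to 125381596 had 2450 and 3112 tags, 223 kb from a control-line site. Its wild-type match ranked 163, with 633 and 813 tags. The nearest control-line site to it starts at 125142450, beside the control line's strongest peak. A further 3KR site, of rank 4, lay from 125511925 to 125520585 with 1750 and 2002 tags, 366 kb from that same control-line site.

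At matched sites the transgene libraries mostly held more tags than the control line, by a factor that differed between duplicates as well as between lines. At the 833 sites matched in the wild-type line, the median ratio of tags to the control line was 1.25 in library 1 and 2.18 in library 2. At the 891 matched in the 3KR line it was 2.37 and 1.93. The transgene value was higher at 66.1% and 93.4% of wild-type and at 97.5% and 91.6% of 3KR matches. These ratios include any difference in library depth, which was not known. At the 801 sites in both lists, median tags were 177 in the control line, 237 and 401 in the wild-type and 450 and 378 in the 3KR libraries. The control line was below all 4 transgene libraries at 510 of them (63.7%) and above all 4 at 7. Per kb of peak the median ratio was again 1.25 in wild-type library 1, and it was smaller in the other libraries, at 1.76 in wild-type library 2 and at 1.97 and 1.66 in 3KR libraries 1 and 2.

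Peak length changed less than tags. The median ratio of peak length to the control line was 1.01 and 1.17 in wild-type libraries 1 and 2 and 1.19 and 1.12 in 3KR libraries 1 and 2. Transgene peaks were the longer ones at 52.5% and 65.3% of wild-type and at 74.2% and 63.6% of 3KR matches. When the width of the listed site, read as the stretch common to both libraries, was used in place of peak length, the wild-type ratio turned (median log2 ratio -0.072, against 0.15 by peak length).

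The order of strength was only loosely shared between the control line and the transgene lines. Across matched sites, control-line tags had a Spearman rho of 0.427 and 0.420 with wild-type libraries 1 and 2, and of 0.511 and 0.521 with 3KR libraries 1 and 2. The duplicates of a line had 0.835 and 0.863 with each other at the same sites. Duplicates share listed positions, whereas control-line peaks were listed separately and matched by at least 1 bp. The control line has no duplicate, so how well its own order repeats is not known. Values between duplicates and values with the control line are therefore not on equal terms. These correlations describe sites that passed the limits in both lists, and they carry no test, since tags follow peak length in every library. In tags per kb, rho with the control line was 0.396 and 0.370 in the wild-type and 0.387 and 0.354 in the 3KR libraries, against 0.812 and 0.804 between duplicates. From the lowest to the highest quintile of control-line tags, median control-line tags at matched sites rose from 97 to 360 in the wild-type comparison. Median wild-type tags rose over the same sites from 164 to 334.5 in library 1 and from 301 to 593 in library 2. At the sites matched in the 3KR line, median control-line tags rose from 98 to 359. Median 3KR tags rose there from 306 to 643.5 in library 1 and from 237.5 to 560.5 in library 2. Because control-line tags cut the quintiles, no comparison of these ranges between lines is drawn.

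**Figure D4:**
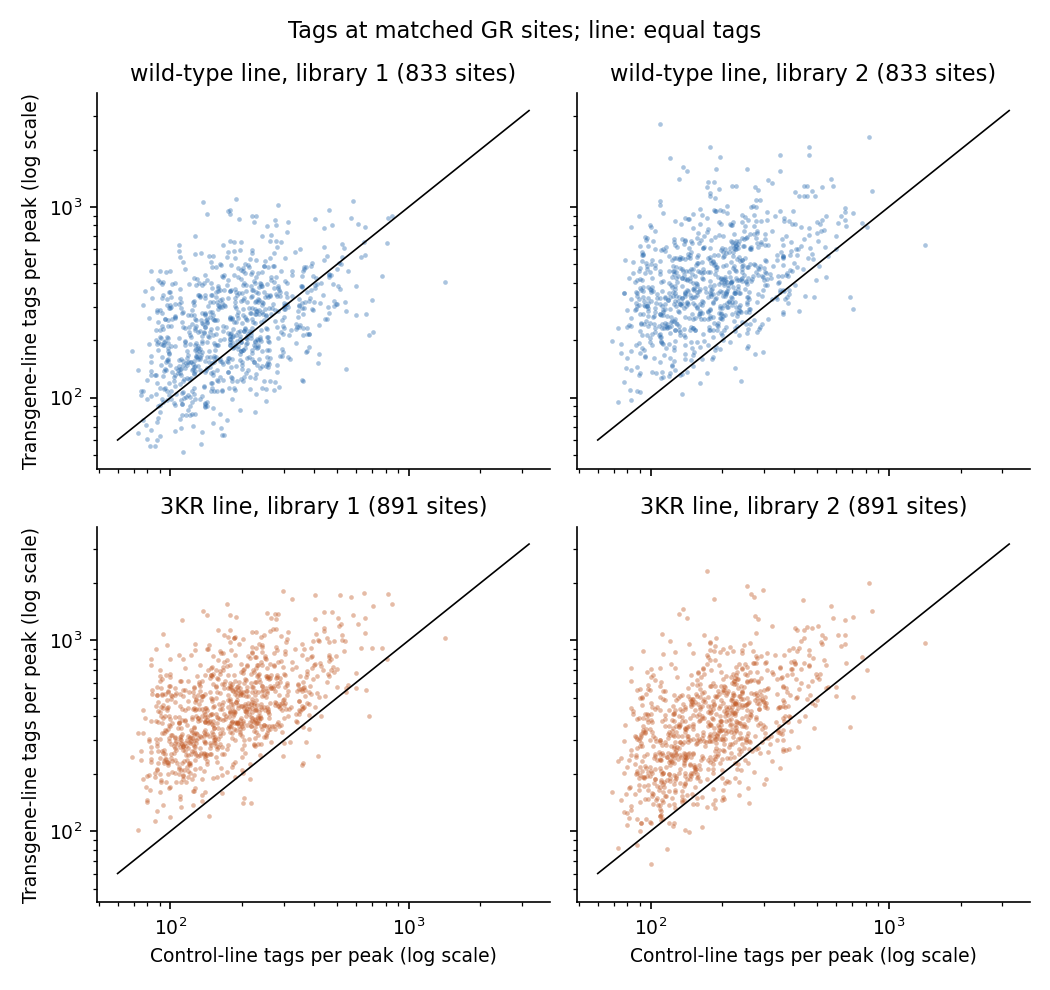
Tags per peak in each transgene library (y axis, log scale) against tags in the matched control-line peak (x axis, log scale), with 1 point per matched site and a line of equal tags. Points lie above the line at 66.1% and 93.4% of wild-type sites (libraries 1 and 2) and at 97.5% and 91.6% of 3KR sites.

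Lists of a transgene line remained several times longer than the control-line list when its tags and fold were lowered to the control line's level. Tags and fold of each transgene library were divided by their median ratio to the control line at matched sites. Limits of more than 50 tags and a fold above 8 were then applied. The lowest listed tags were 51 in wild-type library 1 and in 3KR libraries 1 and 2. They were 71 in wild-type library 2 and 69 in the control line. The lowest fold was 8.01 or 8.02 in each transgene library. This left 6773 wild-type and 8169 3KR sites, 6.67 and 8.04 times the control-line number. The FDR was not recomputed for the lowered signal, and no FDR limit was applied. In the control line the FDR ran up to 9.99%, so these list lengths are not compared at an equal FDR. Lowering tags alone left 10254 and 14036 sites, and lowering fold alone 6818 and 8277. Among those left, 10.4% (wild-type) and 9.29% (3KR) matched the control line, and they covered 702 and 753 of the 1016 control-line sites. Matched sites had to pass the limits in the control line too, so their ratio may understate the difference at sites the control line did not list. With a fold of at least 16 in every library of a line, 276 control-line, 3454 wild-type and 6402 3KR sites remained.

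The ratio of transgene to control-line tags varied widely between single sites. The highest mean ratio over the 4 transgene libraries was at the site on chromosome 1 from 229366733 to 229368000. It held 137 tags in the control line, at a fold of 8.27 close to the limit, against 1061 and 1614 in the wild-type and 1426 and 1468 in the 3KR libraries (mean log2 ratio 3.33). Next was the site on chromosome 1 from 16576110 to 16577788, with 142 control-line tags, 919 and 1541 wild-type and 1366 and 1304 3KR tags. At both, the transgene-line peaks were longer, from 3291 to 6390 bp against 1268 and 1679 bp in the control line. At the other end was the site on chromosome 12 from 13250616 to 13255862, with 684 control-line tags, 212 and 338 wild-type and 402 and 353 3KR tags (mean log2 ratio -1.11). Its control-line peak of 5247 bp overlapped 2 sites in each transgene list, and the tags given are those of the site with the longest overlap. A site on chromosome X from 106983669 to 106986014 had 361 control-line tags, 122 and 282 wild-type and 228 and 262 3KR tags, and the control line had 8 sites within 100 kb, this one included. All 4 transgene libraries were below the control line in tags at these 2 sites, but their peaks were shorter. They spanned 1907 to 2184 bp on chromosome 12, and 1019 to 1381 bp against 2346 bp on chromosome X. Per kb of peak, only wild-type library 1 was below the control line. On chromosome 12 the control line had 130 tags per kb, the wild-type libraries 99.9 and 177 and the 3KR libraries 184 and 169. On chromosome X these values were 154, then 120 and 204, then 192 and 212. The sites were chosen for their ratio, so these values are a description.

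Control-line sites were spread over the chromosomes differently from transgene-line sites. Chromosomes 16, 17, 19, 20, 21 and 22, grouped after their values were seen, held 54 control-line sites (5.31%, 4.02 to 6.88), against 15.2% (14.6 to 15.9) of wild-type and 13.0% (12.5 to 13.5) of 3KR sites. Among the transgene-line sites of the highest tag decile the shares were 18.1% and 10.3%, so the strong sites of those lines were not as rare there as control-line sites. Chromosome 17 held 1.87% of control-line, 4.55% of wild-type and 3.91% of 3KR sites. The control-line share was also below both transgene lists on chromosomes 10, 14, 15 and X, and it was above both on chromosomes 1, 2, 4, 5, 6, 7, 8, 9 and 11. Chromosome 5 held 8.07% of control-line, 5.60% of wild-type and 6.17% of 3KR sites, and 13 of the 93 sites found in neither transgene list. Of its 82 control-line sites, 75.6% were wild-type and 81.7% 3KR sites. Of the 79 on chromosome 6, 74.7% and 91.1% were.

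**Figure D5:**
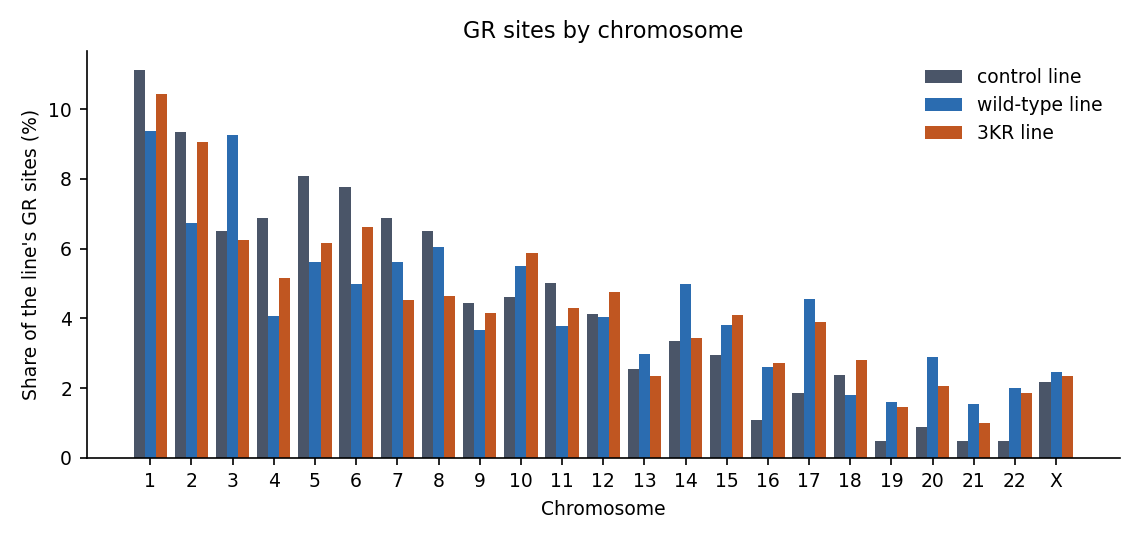
Share of each line's GR sites (in %, y axis) on each chromosome (x axis) for the control line (grey), the wild-type line (blue) and the 3KR line (orange), 1 value per line. Control-line shares are below both transgene lines on chromosomes 10, 14, 15, 16, 17, 19, 20, 21, 22 and X and above both on chromosomes 1, 2, 4, 5, 6, 7, 8, 9 and 11.

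SUMO-2/3, mapped with a separate antibody in the transgene lines, was frequent at control-line sites that both transgene lines listed and nearly absent from those that neither listed. Of the 1016 control-line positions, 436 (42.9%, 39.8 to 46.0) held a SUMO-2/3 site of the wild-type line and 340 (33.5%, 30.6 to 36.5) one of the 3KR line. For reference, 37.4% of all wild-type GR sites and 15.6% of all 3KR GR sites held SUMO-2/3 of their line. Those listed sites were narrower, with median widths of 972 and 950 bp against 1292.5 bp for control-line sites. The shares were not compared at equal width. At the 801 positions in both GR lists the shares were 53.1% and 41.3%. At the 93 in neither, they were 1 of 93 (1.08%, 0.0272 to 5.85) and 0 of 93, which allows a share of up to 3.23% by 3 counts of the total and of up to 3.89% by the exact interval. In the highest quintile of control-line fold the shares were 70.0% (wild-type) and 51.7% (3KR), and in the lowest 18.1% and 19.1%. Sites in neither list also had the lower fold (median 9.18 against 13.1), and the shares were not compared at equal fold. Among transgene-line GR sites of the highest tag decile, SUMO-2/3 lay at 78.8% (73.4 to 83.5) of wild-type sites with a control-line counterpart and at 72.9% (69.8 to 75.8) of those without. In the 3KR line these shares were 61.8% (56.7 to 66.7) and 53.2% (50.7 to 55.8). Below decile 1 that order did not hold throughout. In the wild-type line the shares were 59.9% with and 59.0% without a counterpart in decile 2. They turned to 38.3% (29.1 to 48.2) and 53.2% (50.1 to 56.3) in decile 3, 31.9% (22.5 to 42.5) and 45.8% (42.7 to 48.9) in decile 4, and 21.4% (11.6 to 34.4) and 37.5% (34.6 to 40.5) in decile 6. In decile 5 they were 32.9% (22.5 to 44.6) and 39.3% (36.4 to 42.4). Decile 7 went the other way, with 42.3% (23.4 to 63.1) and 26.3% (23.7 to 29.0). In deciles 8 to 10 the share with a counterpart was again the lower, over only 19, 17 and 11 such sites, with overlapping intervals. In 3KR deciles 2 and 3 they were 32.9% and 35.4%, then 20.3% and 23.7%, with overlapping intervals. Sites are not replicates, and none of these differences was tested across cultures.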

How the data were processed

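Samples were grouped by title, and nothing beyond the series' word for duplicates says that libraries came from separate cultures. The submitters' processing notes name CASAVA, Bowtie 0.12.9 and the hg19 build. Which peak caller made the lists, and with which settings, is not stated there. The authors deposited 1 peak list per library, with tag counts in the library's own peak (not normalized), a fold enrichment (a ratio to background), the FDR in percent and a p column. That column is headed as −log10 per the file headers, but its highest values repeat a ceiling, so it was read as a score that the authors deposited and was not used.

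Overlaps, ranks and ratios were computed in Python 3.11.15 with pandas 2.3.3 and numpy 2.4.6. Intervals are exact Clopper-Pearson 95% intervals (scipy 1.17.1) and cover counting error only. The code was tested on simulated lists. Rank by tags is the mean rank of both libraries. Tags were taken per listed site, so a peak repeated at several sites counts at each. For ratios, a control-line site was paired with the transgene-line site of longest overlap. With 1 control-line library no test was made. Named sites are the 10 control-line sites with the most tags, the 10 such sites in neither transgene list, up to 5 leading sites per line without a control-line site, and up to 5 with extreme tag ratios, of which the first few are given. Members and rules were chosen with earlier results of these data known. The planned GR motif search, and the planned link of sites to genes from fixed lists, were not made, because no genome or annotation of the hg19 build was used here. Input and IgG libraries were not analysed here.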

Additional observations from a re-analysis of the deposited data

How the results depend on the processing

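The overlap rule moved the shares but not their order. With reciprocal overlap of 50%, 72.2% of control-line sites were wild-type and 79.6% 3KR sites, and with centres within 200 bp 58.0% and 61.3%. From the other side these rules gave 6.52% and 5.23% of wild-type and 4.29% and 3.30% of 3KR sites with a control-line site, and 36.7% and 28.1% (wild-type) and 30.4% and 22.8% (3KR) of control-line sites with SUMO-2/3. With transgene lists shortened to 1016 sites, 24.7% (wild-type) and 26.0% (3KR) of control-line sites were found, and above the control-line median fold 92.7% and 97.4%. With a fold of at least 16 in both lists, 5.82% of wild-type and 3.83% of 3KR sites had a control-line site, and the lists held 276 control-line, 3454 wild-type and 6402 3KR sites. Lowering transgene tags and fold to the control line, with no limit on FDR, gave 10.4% and 9.29% with a control-line site. Those lists held 6773 and 8169 sites, or 6818 and 8277 with fold alone lowered. The median position of matched sites was 23.2% (wild-type) and 16.2% (3KR) by fold, 21.9% and 16.2% by tags per kb, and 22.2% and 15.1% with centres within 200 bp. Leaving out each library in turn gave 18.9% to 21.5% and 12.1% to 14.5%. The log2 ratio of tags ranged over left-out libraries from 0.32 to 1.12 (wild-type) and from 0.95 to 1.25 (3KR), and was 0.87 per kb in the 3KR line. The log2 ratio of length ranged from 0.021 to 0.23 and from 0.17 to 0.25, and by listed width it turned to -0.072 in the wild-type and was 0.023 in the 3KR line. The cause of these shifts was not tested. Of 64 settings, 26 moved no value beyond its interval or the spread between libraries, or a number of sites by over 1.5 times. Those 26 include the log2 ratios of tags and length with a library left out, given above. These ratios are themselves the spread between libraries, so they could not move beyond it.

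The lowered lists, the limit on peak length, the rank of control-line sites by fold and the ratio without long control-line peaks were alternatives chosen after seeing the data. Leaving out a library gives no other site number, since duplicates share positions, and the control line has a single library. No paired analysis was possible because no result comes from a fitted test. The motif alternative was not run.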

Other observations

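Sites that both transgene lines listed had a control-line counterpart more often than sites of a single line. Of 10006 wild-type sites shared with the 3KR line, 810 (8.10%) overlapped a control-line site, against 33 of 1253 wild-type-only sites (2.63%) and 94 of 8854 3KR-only sites (1.06%). Shared sites also have more tags, and these shares were not compared at equal tags. For transgene-line sites without a counterpart, the nearest control-line site was a median of 985 kb away in the wild-type and 908 kb in the 3KR line. Of such sites, 13.0% and 13.1% lay within 100 kb of one. The control-line list is sparse, at 1016 sites, and no distances of random positions were computed. Whether these distances are large or small for such a list was therefore not tested.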
